A study of Mus musculus with 12 samples.

Results

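The 9 genes described here encode glutamate and glutamine carriers, a related neutral amino acid carrier, and enzymes that make or use glutamate and glutamine. They are Slc1a1, Slc1a2, Slc1a3, Slc1a4, Slc38a1, Slc38a3, Glul, Glud1 and Got1. They were chosen by symbol from the 52550 features of the deposited count table, and each symbol matched 1 feature. The RNA came from astrocyte TRAP (translating ribosome affinity purification): slices of somatosensory cortex were homogenised, and ribosomes carrying an eGFP tag were pulled down with an antibody to eGFP. In these mice the tag is expressed from an Aldh1l1-TRAP transgene, an astrocyte driver, which both genotypes carry. The knockout mice were Fmr1−/y and the wild-type mice Fmr1+/y, all on the FVB/C57 strain background at P40, and FMRP, the product of Fmr1, binds RNA and is missing in fragile X syndrome. The knockout libraries are numbered 14, 16 and 18 and the wild-type libraries 13, 15 and 17 in the labels, which do not say that each came from a separate animal, so the tests measure the spread between these libraries.

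Glutamate released by neurons is taken up mainly by astrocytes through the sodium-coupled transporters of the Slc1 family. Glutamine synthetase joins the glutamate to ammonia, the glutamine leaves the astrocyte through system N carriers, and neurons take it up and turn it back into glutamate. A part of the glutamate is instead oxidised in astrocyte mitochondria, after deamination by glutamate dehydrogenase or transamination.

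Fmr1 was at 4.32, 4.22 and 1.32 CPM (counts scaled to library size with edgeR's TMM factors) in knockout libraries 14, 16 and 18 and at 31.6, 38.4 and 37.0 CPM in wild-type libraries 13, 15 and 17, so it was low in each library labelled knockout. The 2 deposited entries of a library were summed and counted as 1 sample: their median chi-square per feature was 0.467 to 0.495, near the 0.455 of sampling noise alone. Between libraries of the same genotype, compared by their first entries, it was 2.93 to 18.8. The mean chi-square per feature within a library was 1.17 to 2.33. Total counts ran from 10953958 to 22397202 per library. Knockout libraries 14 and 16 stood apart, since 35.6% and 45.1% of their counts lay on 3 features that collect ribosomal RNA reads, against 0.892% to 7.45% in the other 4 libraries. All 10 astrocyte markers were detected, with a summed level of 14615 to 17283 CPM in the knockout and 14352 to 18363 CPM in the wild type. All 10 neuron markers were detected as well, at a summed 1505 to 2018 CPM and 1062 to 1971 CPM, so RNA of neuron markers was present in the pull-down. The levels are not divided by transcript length, so they are compared between libraries and not between genes.

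No member of the cycle differed between the genotypes beyond the spread between libraries. By edgeR's quasi-likelihood test the members passing an adjusted p of 0.05 numbered 0 of 9, where 0% of the 14990 genes tested passed. Fmr1 itself, at a log2 fold change of -3.53 and with the smallest p of all genes tested, had an adjusted p of 0.300 in edgeR's quasi-likelihood test, so this test at 3 libraries per genotype did not call the deleted gene either. The same 0 of 9 had an unadjusted p under 0.05, where 1.77% of all genes tested did, and DESeq2, edgeR's exact test and limma voom each called 0 of the 9, where they called 0.0534%, 0.06% and 0% of all genes tested. The log2 fold changes, knockout over wild type, ran from -0.11 to 0.19 with a median of -0.0048, against a median of -0.0019 over all genes tested. In 0 of 9 members did the 3 libraries of a genotype lie clear of the other 3, as they did in 6.2% of all genes tested. The exact two-sided permutation p was between 0.4 and 1.0 for the members, in a design that cannot give less than 0.1. What varied was the level from library to library within each genotype, and the members fell into different patterns there.

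Slc1a2 (chromosome 2, 102658239 to 102790784 in build GRCm38.p6) encodes GLT-1, the transporter that carries most glutamate uptake in the adult cortex. It stood at 5327, 5367 and 3075 CPM in knockout libraries 14, 16 and 18 and at 5325, 5178 and 3759 CPM in wild-type libraries 13, 15 and 17. In each genotype 2 libraries lay close together near the same level and 1 lay well below, knockout library 18 and wild-type library 17. Mean levels of 4589 ± 1312 and 4754 ± 865 CPM (SD, n = 3 each) gave a fold of 0.965 with a 95% interval of 0.652 to 1.43.

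Slc1a3 (chromosome 15, 8634124 to 8710807) encodes GLAST, the other astrocyte glutamate transporter, which dominates in early development and in radial glia. Its level was 1623, 2073 and 959.7 CPM in the knockout libraries and 1886, 1797 and 988 CPM in the wild-type libraries. Libraries 18 and 17 were again low, at about equal levels in the 2 genotypes, while knockout library 16 was the highest. The mean was 1552 ± 560.0 against 1557 ± 495 CPM (SD, n = 3 each), a fold of 0.997 with an interval from 0.596 to 1.67.

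Slc1a4 (chromosome 11, 20302180 to 20332713), a carrier of serine, alanine and other neutral amino acids in the same family, had the fold furthest from 1 of the 9. It measured 132, 177 and 94.0 CPM in the knockout and 145, 138 and 71.1 CPM in the wild type. Here too the low library of each genotype was 18 or 17, and the genotypes overlapped over most of their range. The log2 fold change was 0.19 (SE 0.31) and the adjusted p 1.00 (edgeR quasi-likelihood).

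Slc1a1 (chromosome 19, 28835135 to 28913960) encodes EAAC1, the glutamate and cysteine transporter found mainly on neurons. It measured 17.4, 16.9 and 18.5 CPM in the knockout and 10.4, 17.9 and 23.2 CPM in the wild type. The knockout libraries lay close together and within the wild-type range, in which library 13 was lowest and library 17 highest. Slc1a1 was the member with the fewest counts, 120 to 607 per library, and its interval of the fold was 0.665 to 1.59.

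**Figure D1:**
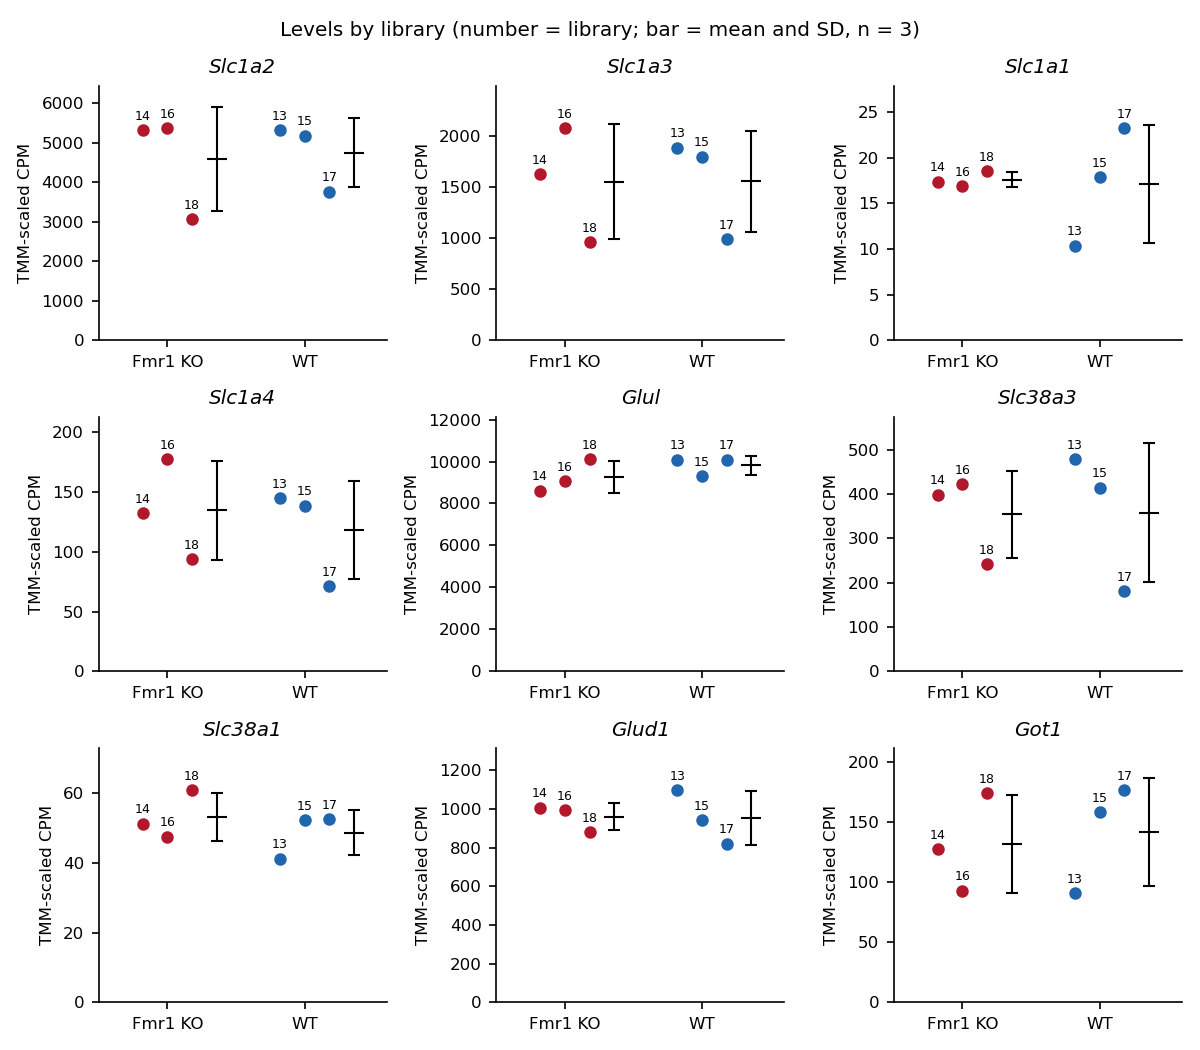
TMM-scaled CPM of the 9 genes in each library (red, Fmr1 knockout; blue, wild type; the number is the library, and the bar gives the mean and SD of 3 libraries). In Slc1a2, Slc1a3, Slc1a4 and Slc38a3 the points of libraries 18 and 17 lie below the rest, while in Glul all 6 lie between 8616 and 10100.2 CPM.

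Glul (chromosome 1, 153899929 to 153909723) encodes glutamine synthetase, an enzyme that in the brain is enriched in astrocytes. Its level was 8616, 9068 and 10100.2 CPM in the knockout and 10079.7, 9287 and 10090.4 CPM in the wild type. The highest library was only 1.17 times the lowest, the narrowest range among the 9 members, and libraries 18 and 17 were not low. Knockout libraries 14 and 16, those with the large ribosomal RNA share, held the 2 lowest levels. With that share as a covariate the log2 fold change of Glul was 0.025 in place of -0.084. The share was large only in these 2 knockout libraries, so that fit rests mostly on library 18 for the knockout. The part of the share in the level of Glul was not tested. Mean levels were 9261 ± 761 in knockout and 9819 ± 461 CPM in wild-type libraries (SD, n = 3 each), with an interval of the fold from 0.747 to 1.19.

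Slc38a3 (chromosome 9, 107651154 to 107668968) encodes SNAT3, the system N carrier through which astrocytes release glutamine. It measured 398, 423 and 242 CPM in the knockout and 478, 414 and 181 CPM in the wild type. Libraries 18 and 17 were low once more, and the highest library was 2.64 times the lowest, the widest range of the 9. The fold was 0.990 with an interval from 0.562 to 1.74, the widest on the log scale of the 9.

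Slc38a1 (chromosome 15, 96571418 to 96643438) encodes SNAT1, a system A carrier that takes glutamine into neurons. It stood at 51.1, 47.5 and 60.7 CPM in the knockout and at 41.1, 52.2 and 52.5 CPM in the wild type. Library 13 was the lowest and library 18 the highest, and the order of the others mixed the genotypes. The log2 fold change of Slc38a1 was 0.13 (SE 0.16, edgeR quasi-likelihood, adjusted p = 1.00).

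Of the enzymes that use glutamate, Glud1 (chromosome 14, 34310727 to 34345033), the mitochondrial glutamate dehydrogenase, measured 1005, 993 and 879 CPM in the knockout and 1095, 941 and 819.6 CPM in the wild type. All 6 libraries lay close together, and the fold was 1.01 with an interval from 0.790 to 1.28. Got1 (chromosome 19, 43499752 to 43524605), the cytosolic aspartate aminotransferase of the malate-aspartate shuttle, measured 127, 92.9 and 174 CPM in the knockout and 90.8, 158 and 176 CPM in the wild type. It was low in knockout library 16 and wild-type library 13 and high in libraries 18 and 17, where Slc1a2 was low, with a fold of 0.929 and an interval from 0.581 to 1.48.

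**Figure D2:**
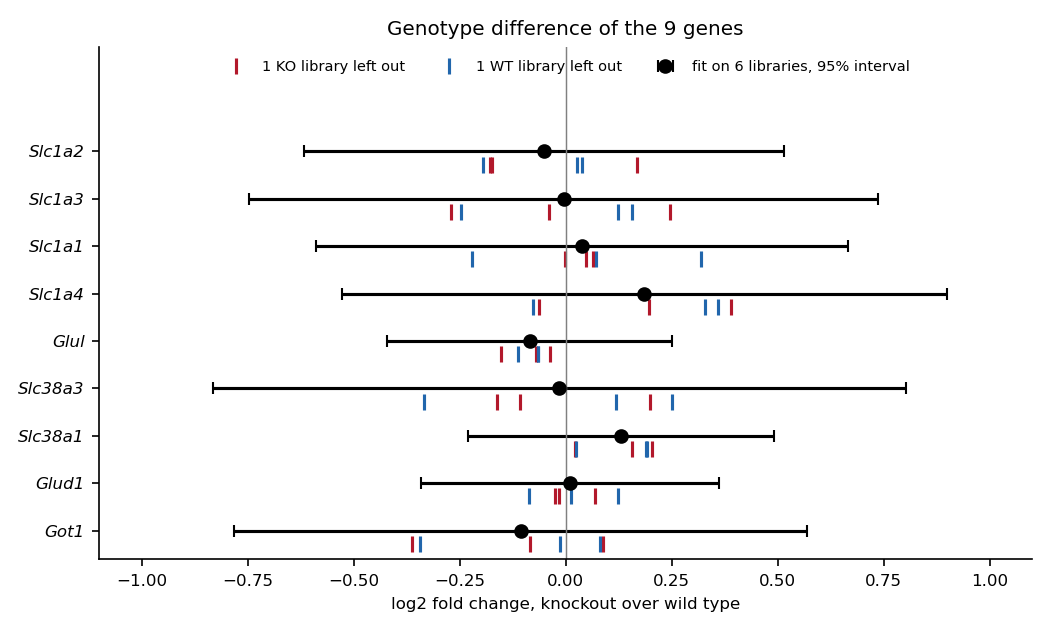
Log2 fold change of each gene, knockout over wild type, with its 95% interval from edgeR's quasi-likelihood fit on 6 libraries (black). The coloured ticks give the value with 1 library left out (red, a knockout library; blue, a wild-type library), and every interval includes 0.

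Within a genotype the members split by which libraries were low. In 5 of 9 members, namely Slc1a2, Slc1a3, Slc1a4, Slc38a3 and Glud1, the 2 lowest libraries were knockout 18 and wild-type 17, as in 21% of the 9349 genes tested with a mean of at least 10 CPM. In 3 of 9, namely Slc1a1, Slc38a1 and Got1, they were wild-type 13 and knockout 16, as in 17.8% of those genes. For Slc1a1 the rank of knockout 16 was by a small margin, at 16.9 CPM from 120 counts. Knockout 14 stood at 17.4 and wild-type 15 at 17.9 CPM. Of the cell type markers, 7 of 10 astrocyte markers, all but Aldh1l1, Gfap and Aldoc, had libraries 18 and 17 lowest. Of the same 10 markers, 0 had libraries 13 and 16 lowest. For the neuron markers these counts were 0 of 10 and 8 of 10, and for the oligodendrocyte markers 0 of 8 and 8 of 8. The groups of members were formed after their values were seen, so the counts are a description of these libraries.

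On the scale of log2 CPM centred on each gene's mean over the 6 libraries, the 10 astrocyte markers averaged -0.28 in knockout library 18 and -0.30 in wild-type library 17, and between 0.05 and 0.23 in the other 4. Slc1a3 stood at -0.63 and -0.59 in libraries 18 and 17, and Slc38a3 at -0.48 and -0.90, so both lay further down than the marker average. Single markers differed from that average: Gja1, itself among the 10, had a profile close to that of Slc1a3. Slc1a2 stood at -0.57 in library 18 but at -0.28 in library 17, close to the marker average there. Glul stood above its mean there, at 0.085 and 0.084. In bulk RNA, fewer astrocyte ribosomes in a pull-down and less of a transcript per astrocyte cannot be told apart.

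The neuron markers averaged -0.71 in wild-type library 13 and -0.30 in knockout library 16, and 0.49 and 0.34 in libraries 18 and 17. The 8 oligodendrocyte markers went the same way, at -0.53 and -0.73 in libraries 13 and 16 and at 0.74 and 0.45 in libraries 18 and 17. Slc1a1 and Got1 stood at -0.70 and -0.54 in library 13 and at 0.45 and 0.42 in library 17. In knockout libraries 16 and 18 Got1 stood at -0.50 and 0.40. Slc1a1 stood at -0.0019 and 0.13 in those 2 libraries, so it did not follow the neuron markers within the knockout. Slc38a1 stayed within -0.30 and 0.26. From which cells the RNA of Slc1a1, Got1 and Slc38a1 came was not tested. With the mean neuron marker level as a covariate the log2 fold change was -0.011 for Slc1a1, 0.073 for Slc38a1 and -0.24 for Got1, the last with an unadjusted p of 0.0572 (edgeR quasi-likelihood, adjusted p = 1.00). With the astrocyte marker level as a covariate, a setting chosen once the values were known, the log2 fold changes were -0.097 for Slc1a2, -0.044 for Slc1a3 and 0.029 for Slc38a3.

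**Figure D3:**
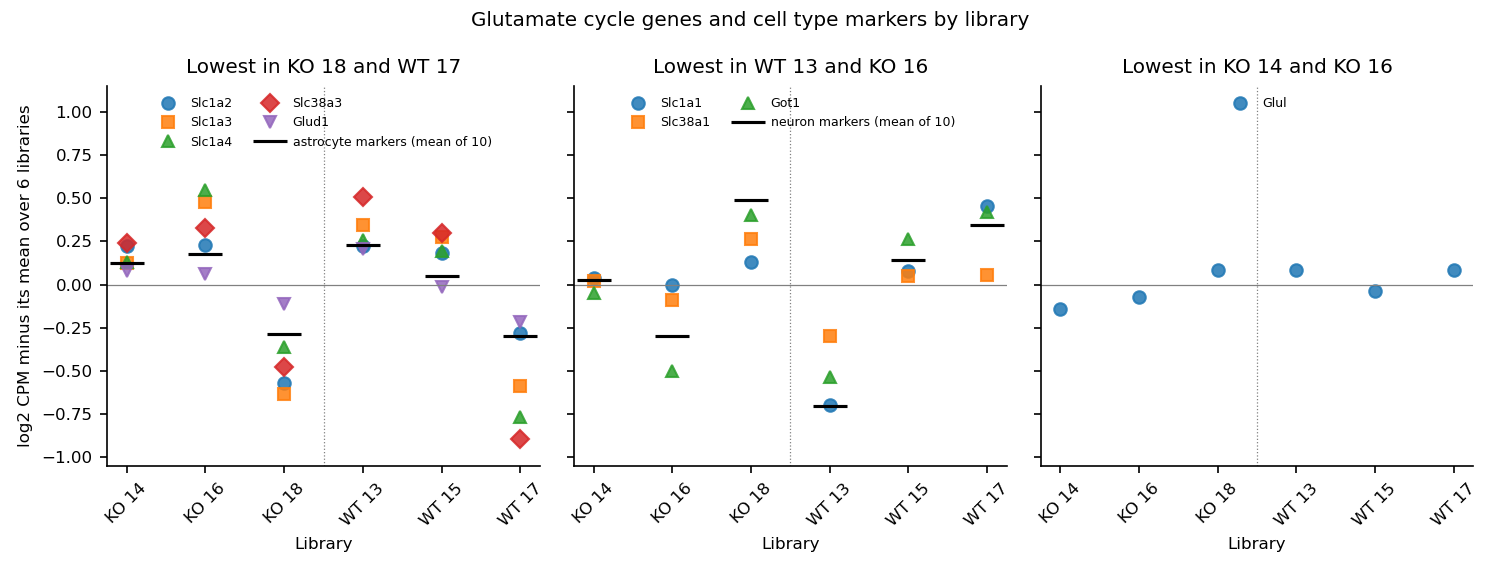
Log2 CPM of each gene minus its mean over the 6 libraries, by library, with the mean of 10 astrocyte markers (left) or 10 neuron markers (middle) as black bars and knockout and wild-type libraries parted by a dotted line. The left genes and the astrocyte bars are lowest in KO 18 and WT 17, the middle genes and the neuron bars in WT 13 (Slc38a1 at -0.30, Got1 at -0.54), and Glul (right) stays within -0.14 and 0.09.

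The spread over libraries was above the usual one for 7 of 9 members: the highest library was more than 1.46 times the lowest, the median over the 9349 genes with a mean of at least 10 CPM, in all but Glul and Glud1. The most similar profiles were taken as the smallest root mean square difference of centred log2 CPM over the 6 libraries, among 9348 genes. Those of Slc1a3 were led by Wnt7a, a Wnt ligand, at 0.027 and Gja1, the main astrocyte gap junction protein, at 0.038. Those of Slc1a2 were Itgb8, an integrin subunit, at 0.019, then Stk40 at 0.048 and Efcab14 at 0.052.

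To set the genes that moved together beside those that did not, the 250 bases before the start site are given for Slc1a3 and Slc1a4, which were lowest in the same 2 libraries as most astrocyte markers, for Glul, which varied least, and for Got1, which was highest in those 2 libraries. They are RefSeq windows of build GRCm38.p6, written 5′ to 3′ in the direction of the gene, at chr15:8710808-8711057 (minus strand), chr11:20332714-20332963 (minus), chr1:153899679-153899928 (plus) and chr19:43524606-43524855 (minus). Capitals mark the GC box GGGCGG, the CCAAT box CCAAT and the TATA box TATAAA on either strand.
Slc1a3: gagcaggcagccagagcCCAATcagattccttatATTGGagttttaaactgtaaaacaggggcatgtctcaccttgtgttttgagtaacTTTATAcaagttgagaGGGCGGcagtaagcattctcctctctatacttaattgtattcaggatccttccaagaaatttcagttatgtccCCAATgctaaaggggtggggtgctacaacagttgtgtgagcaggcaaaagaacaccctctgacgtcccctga
Slc1a4: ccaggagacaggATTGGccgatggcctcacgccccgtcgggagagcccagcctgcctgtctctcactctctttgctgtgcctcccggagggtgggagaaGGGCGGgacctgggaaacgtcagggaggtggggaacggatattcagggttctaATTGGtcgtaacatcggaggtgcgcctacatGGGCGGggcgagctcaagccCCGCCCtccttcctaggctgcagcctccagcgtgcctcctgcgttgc
Glul: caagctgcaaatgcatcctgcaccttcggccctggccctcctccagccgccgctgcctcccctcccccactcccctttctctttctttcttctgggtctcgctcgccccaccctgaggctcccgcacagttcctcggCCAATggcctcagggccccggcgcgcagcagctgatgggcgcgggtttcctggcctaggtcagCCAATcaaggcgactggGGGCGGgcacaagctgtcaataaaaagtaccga
Got1: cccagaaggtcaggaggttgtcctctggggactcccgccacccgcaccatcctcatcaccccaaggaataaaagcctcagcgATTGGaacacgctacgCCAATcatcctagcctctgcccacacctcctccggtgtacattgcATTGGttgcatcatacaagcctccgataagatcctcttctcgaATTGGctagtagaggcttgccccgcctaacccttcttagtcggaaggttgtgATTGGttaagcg
In windows of this length the GC box was found in 32.7%, the CCAAT box in 33.8% and the TATA box in 12.4% of the 32851 windows of the table, and in 5, 4 and 1 of the 7 members that have one. Got1 held 5 CCAAT boxes and no GC box, and Slc1a4 3 GC boxes and 2 CCAAT boxes. The printed windows were picked after the values were seen, and unprinted members of the same groups differed from them. Glud1, lowest in the same libraries as Slc1a3 and Slc1a4, held 3 GC boxes and no CCAAT box. Slc1a1, lowest in the same libraries as Got1, held 1 GC box and no CCAAT box. Whether promoter content goes with the library pattern was not tested. Slc1a3 was the 1 member with a TATA box match, on the opposite strand and at -161 from the start site. Whether it works as a TATA box was not tested. The Slc1a3 window was 44.8% G and C, as was that of Slc1a2, against 64.8% in Slc1a4 and Glul. The Slc1a2 window of the table belongs to a start 48199 bases inside the gene's span and is not printed. It is counted among the 7 and held none of these boxes.

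For 7 of 9 members the sign of the fold change turned with the library left out. Without knockout library 18 the log2 fold change of Slc1a2 was 0.17 and that of Slc1a3 0.25, and without wild-type library 17 they were -0.20 and -0.25. Leaving out wild-type library 13 or 15 also turned both, and Slc38a3 with them, to values between 0.026 and 0.25. Slc1a4 turned to -0.062 without knockout library 16 and to -0.077 without wild-type library 17, and Got1 to 0.089 and 0.082 without the same 2. Glud1 turned without knockout library 14, knockout library 16 or wild-type library 17, to between -0.087 and -0.016. Slc38a3 ran from -0.33 without wild-type library 17 to 0.25 without wild-type library 13, and was at 0.198 without knockout library 18. Slc1a1 ran from -0.22 without wild-type library 13 to 0.32 without wild-type library 17, with -0.0021 without knockout library 18. Glul and Slc38a1 kept their sign whichever library was left out, with values from -0.15 to -0.036 for Glul and from 0.022 to 0.20 for Slc38a1. Without both libraries 18 and 17, a choice made after the data were seen, Slc1a2 was at 0.029 and Slc1a3 at 0.0092, and 0 of 9 members passed. Likewise 0 of 9 passed without knockout libraries 14 and 16, where 1 knockout library is left and assumed to vary like the wild type.

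The numbers in the sample titles that read as a month and day put knockout libraries 14 and 16 with wild-type library 13 in month 5, and knockout library 18 with wild-type libraries 15 and 17 in month 6. The mean difference in log2 CPM, knockout minus wild type, was 0.0058 in month 5 and -0.52 in month 6 for Slc1a2, and -0.040 and -0.47 for Slc1a3. For Glul it was -0.19 and 0.061, for Slc38a1 0.26 and 0.21, and for Slc38a3 -0.22 and -0.18. For Slc1a1 it was 0.72 and -0.14, for Slc1a4 0.081 and -0.077, and for Glud1 -0.13 and 0.0011. For Got1 it was 0.26 and 0.061, above 0 in both months, where the fit on 6 libraries gave -0.11. Within each month 1 genotype has a single library, so no test was made there. With the month number as a covariate the log2 fold change was -0.27 for Slc1a2 and 0.24 for Slc38a1 (edgeR quasi-likelihood, adjusted p = 0.971 for both). Slc1a2 was at -0.56 when the fit took the share of ribosomal RNA reads into account (edgeR quasi-likelihood, unadjusted p = 0.0491 and adjusted p = 0.860). That was the 1 case with an unadjusted p under 0.05 among 180 values of the members under 20 alternative settings. With the same covariate Slc1a3 moved to -0.66 (edgeR quasi-likelihood, unadjusted p = 0.0863) and Slc38a3 to -0.51 (unadjusted p = 0.290). Without knockout libraries 14 and 16, the libraries with the large ribosomal RNA share, Slc1a2 was at -0.60 (unadjusted p = 0.0652), Slc1a3 at -0.67 and Slc38a3 at -0.54. The values without libraries 14 and 16 rest on knockout library 18 alone for the knockout, in which the average of the astrocyte markers was low as well. The ribosomal RNA share was large only in libraries 14 and 16, so the values with that covariate rest mostly on library 18 too. These settings are therefore not separate evidence, and the part of the markers in them was not tested.

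The authors' deposited table, which lists the 12 entries separately, gives each of the 9 members an adjusted p of 0.9995. Log2 fold changes in the authors' deposited table were -0.052 for Slc1a2, -0.0055 for Slc1a3, -0.084 for Glul and 0.18 for Slc1a4. Counts more than 0.005 from a whole number, which RSEM gives where reads map to more than 1 place, occurred for Glul in 12 of 12 entries and for Slc1a2 in 10 of 12, so some of their reads were divided with other features. They occurred for Slc1a1 in 4 and for Glud1 in 2 entries. Slc1a3, Slc1a4, Slc38a1, Slc38a3 and Got1 had counts within 0.005 of a whole number in all 12.

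Beyond the 9, a list of 28 other genes that handle glutamate or glutamine was measured, of which 25 passed the filter on low counts. Of the 25, 0 passed an adjusted p of 0.05 with edgeR's quasi-likelihood test and 0 had an unadjusted p under 0.05, and the other 3 tests also called 0. Their log2 fold changes were above 0 in 13 and below 0 in 12, with a median of 0.038. The 3 left out, Slc38a4, Slc38a5 and Slc17a8, had at most 21 counts in any library.

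Among these, Gpt2, the mitochondrial alanine aminotransferase, had the smallest p, at 117 ± 4.35 against 140.0 ± 17.7 CPM (SD, n = 3 each; log2 fold change -0.26, SE 0.14). Slc7a11, the cystine and glutamate exchanger xCT, followed on the lower side at 62.0 ± 10.6 against 71.0 ± 9.63 CPM, with Slc38a6 and Aldh18a1 at log2 fold changes of -0.51 and -0.14. On the higher side stood Slc25a13, a mitochondrial aspartate and glutamate carrier, at 1.48 ± 0.335 against 0.944 ± 0.184 CPM, and Slc25a18, the mitochondrial glutamate carrier of astrocytes, at 998 ± 56.8 against 866 ± 215 CPM. Bcat2, a branched-chain aminotransferase, and Pcx, pyruvate carboxylase, stood at log2 fold changes of 0.16 and 0.15. For all 8 edgeR's quasi-likelihood test gave an adjusted p of 1.00. Their sizes moved with the library left out: Slc38a6 ran from -0.93 without wild-type library 17 to -0.027 without wild-type library 15, and Aldh18a1 from -0.29 without knockout library 18 to -0.0070 without knockout library 16. Slc7a11 ran from -0.32 without knockout library 16 to -0.072 without knockout library 18, and Gpt2 from -0.35 without wild-type library 15 to -0.19 without wild-type library 13. On the higher side Slc25a18 ran from 0.087 without wild-type library 17 to 0.42 without wild-type library 13, and Bcat2 from 0.063 to 0.27 without the same 2. Pcx turned to -0.061 without knockout library 18 and reached 0.29 without knockout library 16. Slc25a13 ran from 0.50 without knockout library 14 to 0.82 without wild-type library 17, and from the first entries alone it was 1.18 (edgeR quasi-likelihood, unadjusted p = 0.0321 and adjusted p = 1.00).

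**Figure D4:**
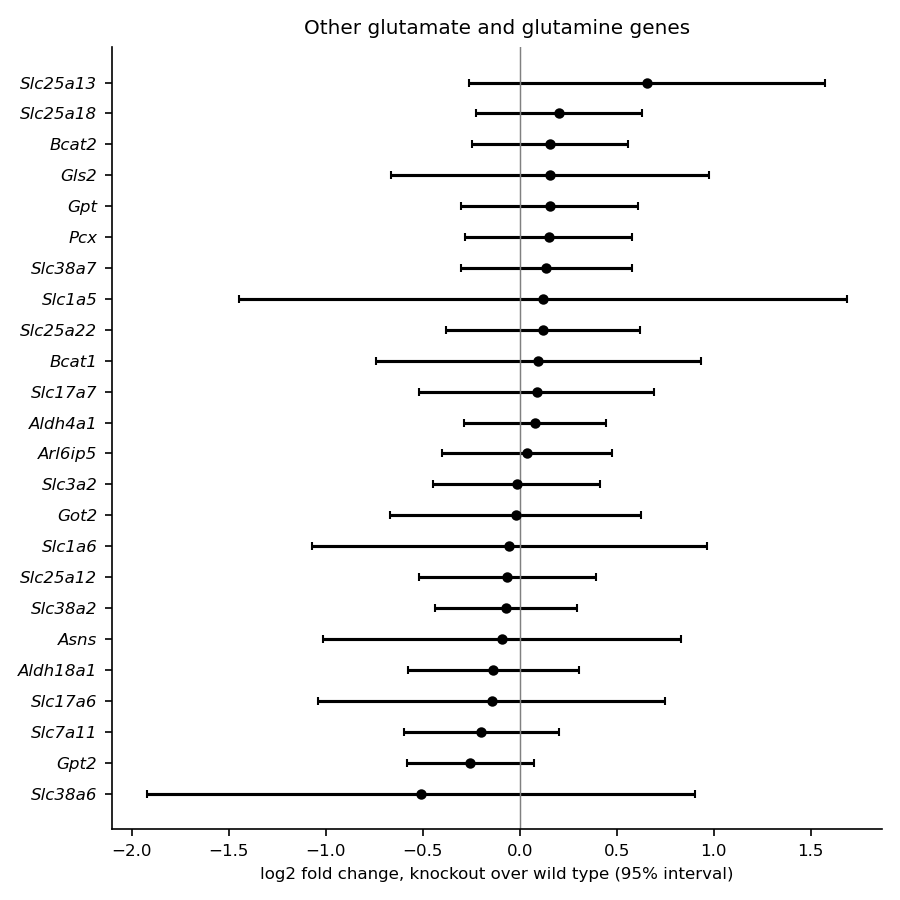
Log2 fold change, knockout over wild type, of 24 of the 25 other glutamate and glutamine genes tested, with 95% intervals from edgeR's quasi-likelihood fit (3 libraries per genotype). Each interval drawn includes 0, and the widest belong to genes near 1 CPM such as Slc1a5 and Slc38a6.

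The vesicular glutamate transporters Slc17a6 and Slc17a7 and the mitochondrial aminotransferase Got2 were among 11 of 25 genes with libraries 13 and 16 lowest, a share of 44% against 17.8% of all genes with a mean of at least 10 CPM. Slc7a11 and its partner subunit Slc3a2 were among 4 of 25 with libraries 18 and 17 lowest, a share of 16%. Among all genes with a mean of at least 10 CPM that share was 21%. The 25 were not held to that level and include genes below it, such as Gls2 and Slc1a5. Both comparisons are therefore between unlike sets, and no difference is read from them.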

How the data were processed

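Ribosome-bound RNA was sequenced from 6 libraries, each deposited as 2 entries. Per the file headers, the deposited counts are unscaled RSEM expected counts per gene. The submitters' processing notes name STAR 2.5.3a, RSEM 1.3.0 and edgeR with build mm10. The sources used here give neither an annotation release nor a strand setting. A second table holds the authors' log2 fold changes and mean log2 CPM, their p-values with the adjusted ones, and a scaled signal per entry, which was not used.

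Entries were summed per library and rounded. Genes were filtered with filterByExpr, scaled by TMM and tested with edgeR 4.0.16 (quasi-likelihood F test, R 4.3.3) on genotype, with Benjamini-Hochberg adjustment over 14990 genes. The SE was taken from the F statistic and the 95% interval from 8.24 degrees of freedom. Centred log2 values used a prior count of 2. Alternatives used DESeq2 1.42.0, limma 3.58.1 and the settings named at the end. The fit was tested on simulated data. Gene positions and promoter windows came from RefSeq tables. The members, lists and settings were chosen with earlier results of these data known. All 9 members are named. Of the other genes, the 4 with the smallest p in each direction are named, and genes named for their library pattern were chosen after their values were seen. Values of 2 genes that this rule or the figures would name are not reported here.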

Additional observations from a re-analysis of the deposited data

How the results depend on the processing

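No member passed the threshold under any of 20 alternatives, with a smallest adjusted p of 0.860, and 0 of the other glutamate and glutamine genes tested did. Of 180 values of the 9 members, 139 kept the sign of the fit on 6 libraries and 41 turned. Leaving out 1 library gave log2 fold changes from -0.22 to 0.32 for Slc1a1, -0.20 to 0.17 for Slc1a2, -0.27 to 0.25 for Slc1a3, -0.077 to 0.39 for Slc1a4, -0.087 to 0.12 for Glud1, -0.33 to 0.25 for Slc38a3, -0.36 to 0.089 for Got1 and -0.061 to 0.29 for Pcx. Signs also turned with the neuron marker level as a covariate (Slc1a1 -0.011, Slc1a2 0.0079, Slc1a3 0.085, Slc38a3 0.15) and with the astrocyte marker level (Slc38a3 0.029). They turned with the month number as a covariate (Slc1a4 -0.031, Glud1 -0.068, Got1 0.17) and with the ribosomal RNA share (Slc1a4 -0.32, Glul 0.025, Glud1 -0.089, Got1 0.24, Aldh18a1 0.067). Without knockout libraries 14 and 16, which leaves 1 knockout library assumed to vary like the wild type, they turned for Slc1a4 (-0.30), Glul (0.066), Glud1 (-0.090), Got1 (0.32) and Aldh18a1 (0.13). Without libraries 18 and 17 they turned for Slc1a2 (0.029), Slc1a3 (0.0092), Glud1 (-0.024) and Pcx (-0.11). First entries alone gave -0.072 for Slc1a1, DESeq2 0.0064 and its size factors 0.0063 for Slc1a3, and limma voom 0.056 for Slc38a3. The cause was not tested. The median ratio of knockout to wild-type mean levels over the 9 members was 0.997 with TMM scaling and 0.728 in CPM on the library total, where the ribosomal RNA reads of libraries 14 and 16 enter the total. No paired analysis was made, because the labels do not state which knockout and wild-type libraries belong together and the genotypes share no library number. The month number of the titles, shared by both genotypes, was fitted as a covariate, which left 0 of 9 members past the threshold.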
